A study of Mus musculus with 8 samples.

Results

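The smooth muscle contractile genes examined here are 10 genes that encode the actin filaments, myosin and filament-binding proteins of the smooth muscle cell: Actg2, Acta2, Tagln, Cnn1, Myh11, Myl9, Mylk, Tpm1, Tpm2 and Lmod1. They were chosen by gene symbol, and all 10 were found among the 24639 gene entries of each count list. The set was built around Actg2, which was itself selected on its lower counts in miR-379KO cells in these data. The values of Actg2 in miR-379KO against WT are therefore given as a description without a test, and every count of calls below covers the other 9 genes. The question was whether the lower Actg2 is shared by the rest of the contractile genes, in total RNA and in AGO2-bound RNA.

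The cells were primary mouse mesangial cells (MMC), cultured from sieved kidney glomeruli of C57BL/6J mice and left untreated. The WT MMC came from wild-type mice and the miR-379KO MMC from mice homozygous for a short deletion at miR-379 made with a CRISPR-Cas9 nickase. Each genotype was profiled as total RNA and as RNA pulled down with an antibody to AGO2, the Argonaute protein that holds microRNAs on their target RNAs (AGO2-IP), with 2 replicates, A and B, in each of the 4 groups. The study's methods pool glomeruli before culture and describe A and B as independent samples without naming the animals behind them, so p-values measure only the spread between these samples, which may be smaller than that between mice.

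Contraction in smooth muscle starts when calcium and calmodulin activate myosin light chain kinase, which phosphorylates the regulatory light chain and lets smooth muscle myosin pull on actin filaments. Most genes of this apparatus are switched on together by serum response factor (SRF) with its cofactors myocardin and the myocardin-related factors. Mesangial cells are pericyte-like cells of the glomerulus that take on many of these genes, Acta2 above all, in culture and in glomerular injury.

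The microRNA removed in the miR-379KO mice pairs with targets mainly through bases 2 to 8, its seed. The mature sequences from RefSeq (GRCm38.p6, the same assembly as mm10) are shown because they define the sites that were searched for, with the seed in capitals. The first lies at chr12:109709065-109709085 and the second at chr12:109709102-109709123, both on the plus strand.
mmu-miR-379-5p: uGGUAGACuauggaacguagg
mmu-miR-379-3p: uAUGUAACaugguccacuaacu
The match to the 5p seed, GTCTACC, was in the 3′-UTR of 0 of the 10 contractile genes, Actg2 included, and in 905 of 19214 annotated 3′-UTRs (4.71%). The match to the 3p seed, GTTACAT, was found once among the 10, in Myh11, and in 7.96% of all 3′-UTRs. The Myh11 match, in capitals below, lies at chr16:14194793-14194799 on the minus strand.
Myh11 3′-UTR: gaaatgaggaaGTTACATgaatgggtgcc
The 3′-UTR of Actg2 is short, at 76 bases, against 495 to 2195 bases in the other 9 genes and a median of 946 bases over all genes. A missing match says only that these letters are not in the annotated 3′-UTR.

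The genes lie on 7 chromosomes, with Tagln, Cnn1 and Tpm1 on chromosome 9 and Myh11 and Mylk on chromosome 16. Actg2 spans chr6:83512909-83536251 on the minus strand, Acta2 spans chr19:34240336-34255585 on the minus strand and Cnn1 spans chr9:22099221-22109221 on the plus strand. RefSeq promoter windows around the start of the gene were at hand for 7 of the 10 genes, and Actg2, Tagln and Myh11 had none. The CArG box that SRF binds was found in 1 of these 7, Myl9, and in 1.81% of the 27025 genes with a promoter window. In Myl9 the box begins 161 bases before the start point on which its promoter window is placed. The annotated Myl9 gene begins upstream of that point, at chr2:156775408, and so nearer to the box. The stretch around the box, at chr2:156775283-156775332 on the plus strand, is shown with the box in capitals.
Myl9 promoter: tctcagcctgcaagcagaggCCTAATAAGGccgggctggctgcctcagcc
The MCAT element CATTCC, searched on both strands, was in 4 of the 7 (Acta2, Mylk, Tpm1 and Lmod1) and in 16.6% of the genes with a window. CArG boxes of contractile genes often lie further upstream or in introns, outside these windows.

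Total RNA libraries held 17168230 to 22660743 gene counts. AGO2-IP libraries held 9586299 to 17095021 in WT and 5587611 to 6545652 in miR-379KO, and most of these counts fell on the ribosomal RNA precursor entry Rn45s (72.2% to 80.5%). Leaving out Rn45s and Lars2, 1605632 to 1875037 counts remained in WT AGO2-IP and 1115782 to 1308149 in miR-379KO AGO2-IP. The share of listed reads that fell in genes was 26.8% and 26.9% in the WT pull-downs and 12.1% and 11.1% in the miR-379KO pull-downs. The Mir379 entry held 0 counts in 6 libraries, 4 counts in WT AGO2-IP B and 1 count in miR-379KO AGO2-IP A, so gene counts could not check the deletion.

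The cell type label was compared with markers in total RNA, in CPM, which are gene counts scaled to a common library size with TMM factors within each assay. Pdgfrb, the PDGF receptor of mesangial cells and pericytes, ranged from 112 to 202 CPM and Cspg4 from 70.1 to 114 CPM. The mesangial markers Itga8 and Gata3 were low, at 0.383 to 2.27 CPM and 1.97 to 3.76 CPM, and the renin gene Ren1 was at 0 in all 8 libraries. The 6 fibroblast markers summed to 8009 and 6804 CPM in WT and 4680 and 7817 CPM in miR-379KO, the highest of the marker lists. Of these 6 genes, 2 were under 1 CPM in every total RNA library. In WT AGO2-IP the collagen genes Col1a1 (34778 and 41962 counts), Col1a2 (12919 and 4101) and Col3a1 (2850 and 2761) held most of the list. Dcn (18 and 8 counts), Pdgfra (13 and 9) and Lum (2 and 0) were low there. The 10 mesangial and pericyte markers summed to 393 to 1078 CPM. The endothelial markers summed to 0.0587 to 2.17 CPM and the immune markers to 1.79 to 4.16 CPM over 6 genes each, while the tubular epithelial markers summed to 5.91 to 51.5 CPM. The podocyte genes Synpo and Wt1 were present at 195 to 516 CPM and 28.8 to 93.4 CPM, although the defining podocyte gene Nphs1 reached at most 0.239 CPM. In bulk RNA of this kind, fewer cells of a type and less RNA per cell cannot be told apart.

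Per kilobase of exon, the contractile genes spanned about 4 orders of magnitude in WT total RNA. Tagln and Acta2 stood highest and within their spread of each other, at 2833 ± 423 and 2819 ± 550 CPM per kb (SD, n = 2). Tpm1 (766 ± 100 CPM per kb), Myl9 (627 ± 177 CPM per kb) and Actg2 (486 ± 66.0 CPM per kb) came next, each within the spread of its neighbour. Cnn1 and Tpm2 followed at 284 ± 160 and 224 ± 67.0 CPM per kb and did not differ beyond their spread. Lmod1 was at 47.1 ± 2.28, Mylk at 10.7 ± 4.41 and Myh11 at 0.273 ± 0.108 CPM per kb. Myh11, the smooth muscle myosin heavy chain and the marker of fully differentiated smooth muscle, was thus nearly absent while the smooth muscle actin and the actin-binding proteins were abundant.

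In total RNA the lower Actg2 was not accompanied by lower levels of the other contractile genes. Actg2, the gamma smooth muscle actin of visceral muscle, measured 701 and 578 CPM in WT A and B and 144 and 317 CPM in miR-379KO A and B. Both miR-379KO libraries lay below both WT libraries, and the ratio of the WT mean to the miR-379KO mean was 2.77. Its log2 fold change of −1.47 ± 0.41 (SE) was the 19th lowest of 12321 genes tested, which is the value that led to its choice.

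Acta2, the alpha smooth muscle actin of vascular muscle and of myofibroblasts, measured 6886 and 9090 CPM in WT and 10606 and 10696 CPM in miR-379KO. Tagln, the actin-binding protein SM22 alpha, measured 4019 and 4967 CPM in WT and 6825 and 5895 CPM in miR-379KO. Tpm1, a tropomyosin that lies along the actin filament, measured 3630 and 4369 CPM in WT and 4624 and 4638 CPM in miR-379KO. For these 3 genes both miR-379KO libraries lay above both WT libraries, the opposite side from Actg2. Such a gap on the higher side was present in 9.89% of all genes tested in total RNA, and on the lower side in 9.07%. Of the 9 genes, 3 had the gap on the higher side and 0 on the lower side.

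The other 6 genes overlapped between genotypes. Tpm2, the beta tropomyosin, measured 591 and 909 CPM in WT and 876 and 1118 CPM in miR-379KO. Cnn1, the calponin that binds actin and restrains the myosin ATPase, measured 359 and 834 CPM in WT and 635 and 452 CPM in miR-379KO. Lmod1, a leiomodin that nucleates actin filaments, measured 192 and 179 CPM in WT and 241 and 185 CPM in miR-379KO. The WT replicates of Cnn1 lay further apart than the genotypes did. The myosin genes and Mylk overlapped between genotypes too. Myl9, the regulatory light chain, measured 587 and 881 CPM in WT and 831 and 683 CPM in miR-379KO. Mylk, the kinase that phosphorylates it, measured 62.4 and 114 CPM in WT and 109 and 83.6 CPM in miR-379KO. Myh11 measured 2.63 and 1.48 CPM in WT and 3.83 and 2.47 CPM in miR-379KO, from 27 to 88 counts per library.

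**Figure D1:**
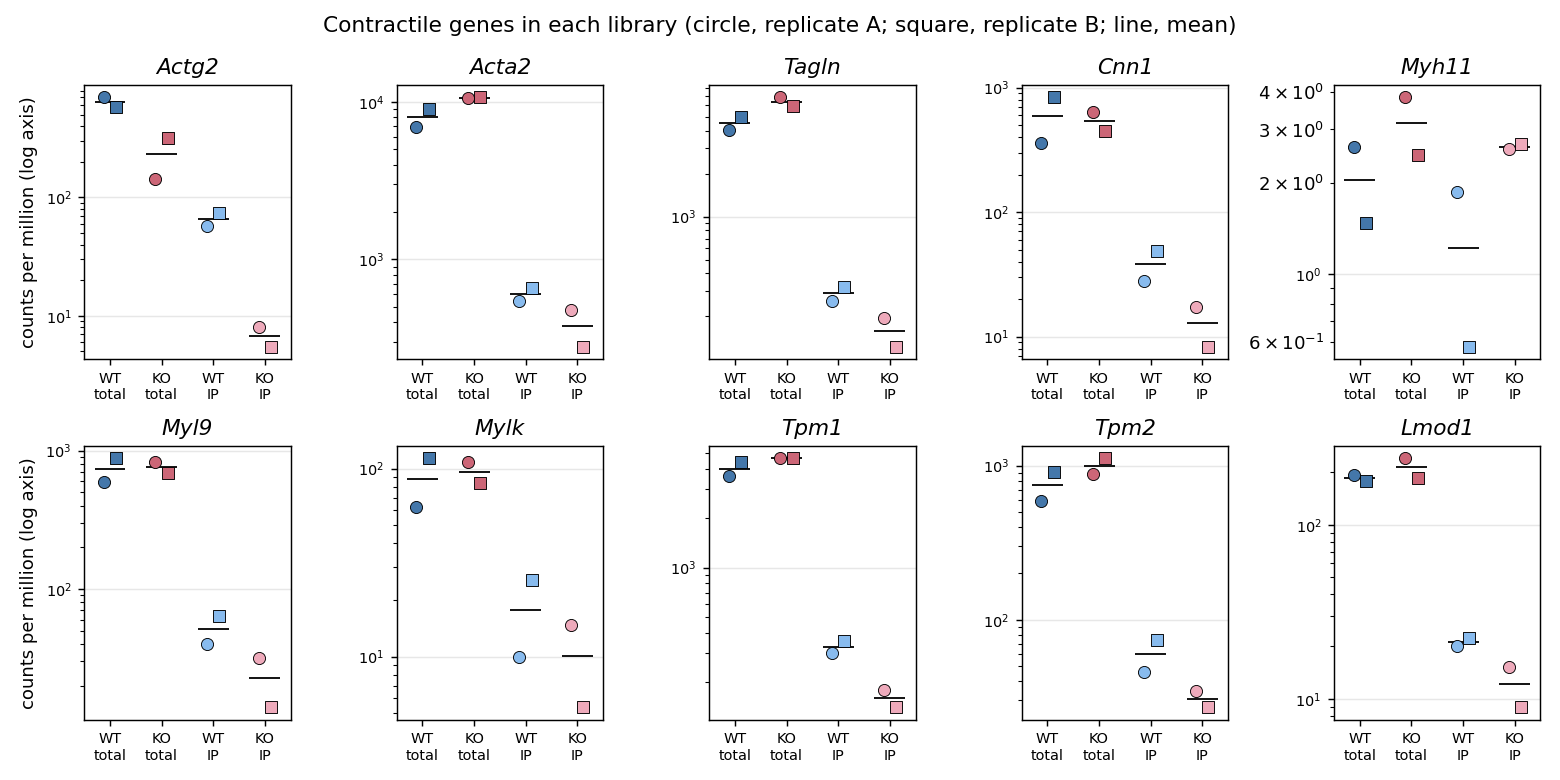
Levels in CPM (log axes that differ between panels) of the 10 contractile genes in the 8 libraries, with circles for replicate A, squares for replicate B and lines for the mean of the 2 libraries of a group. In total RNA Actg2 is lower in both miR-379KO libraries, whereas Acta2, Tagln and Tpm1 are higher in both. In AGO2-IP 8 of the 10 genes, Actg2 among them, lie lower in both miR-379KO libraries. The same held for 32.2% of all genes tested and for 69.7% of genes with a mean over 1000 total RNA counts.

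On the log2 scale the differences of the 9 genes in total RNA ran from −0.13 ± 0.44 (SE) for Cnn1 to 0.62 ± 0.48 for Myh11, with a median of 0.21 against −0.01 over all genes tested. Of the 9, 8 were above 0. Tagln (0.50 ± 0.30), Acta2 (0.42 ± 0.31) and Tpm2 (0.41 ± 0.32) had the next largest values, and Tpm1 (0.21 ± 0.28), Lmod1 (0.20 ± 0.23), Mylk (0.13 ± 0.33) and Myl9 (0.04 ± 0.30) lay within 1 SE of 0. In edgeR's quasi-likelihood test 0 of the 9 passed a Benjamini-Hochberg adjusted p of 0.05, beside 0% of all genes tested (0 of 12321). At an unadjusted p under 0.05 the counts were 0 of 9 and 91 of 12321, and DESeq2 called 0 of the 9 as well. The study's own cutoff asked for an unadjusted p under 0.05 and a difference of more than 1.5-fold, and by it 0.349% of genes were lower and 0.333% higher, with 0 of the 9 among them.

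Between the replicates of a genotype most of these genes differed in the same direction, and in total RNA Actg2 lay on the other side. In WT total RNA, replicate B was higher than A for 7 of the 9 genes, with a median log2 difference of 0.40 (all genes, 0.00), and Cnn1 was 2.33-fold and Mylk 1.82-fold higher in B. Actg2 was 0.82-fold in B against A. In miR-379KO total RNA, replicate B was lower than A for 6 of the 9 genes, with a median of −0.28, whereas Actg2 was 2.20-fold higher in B. Expressed per 100 Acta2 counts of the same library, which needs no scaling between libraries, Actg2 stood at 10.2 (A) and 6.36 (B) counts in WT and at 1.36 (A) and 2.97 (B) counts in miR-379KO. Tagln kept a narrower range of 54.6 to 64.3 counts per 100 Acta2 counts over the same 4 libraries. On the same scale Myl9 ran from 6.38 to 9.69 counts and Cnn1 from 4.22 to 9.17 counts.

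**Figure D2:**
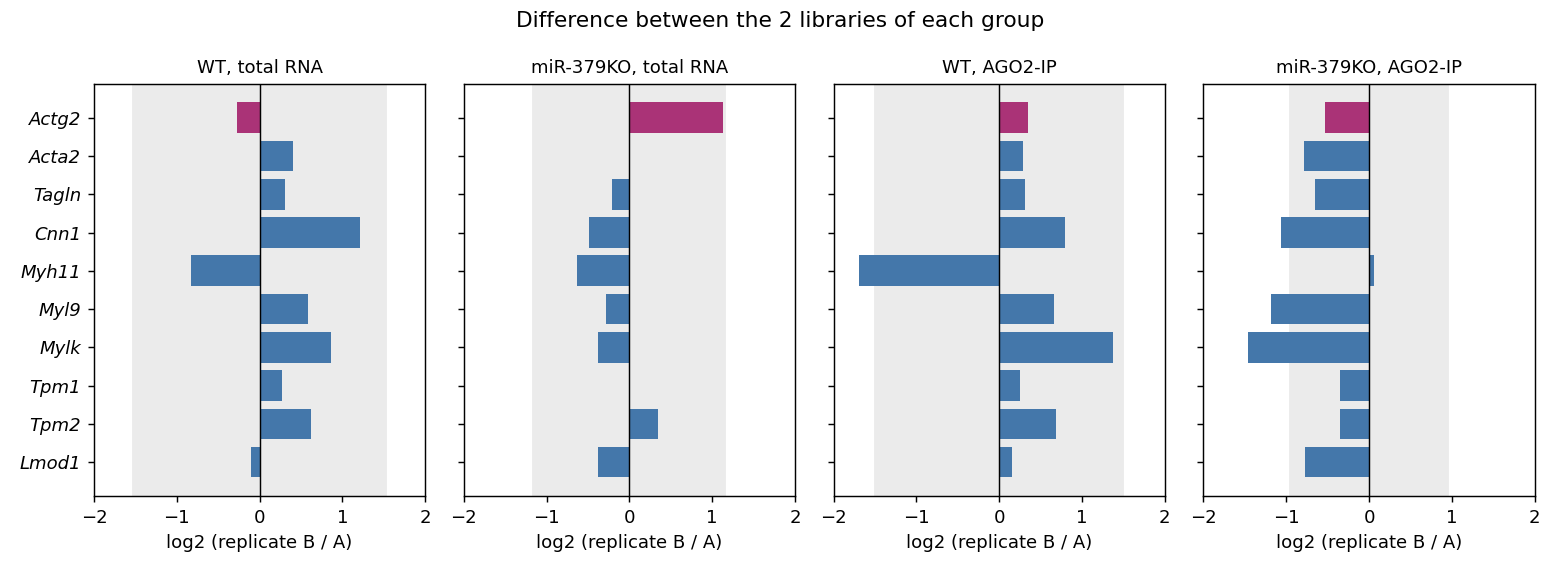
Log2 ratio of replicate B to replicate A for each contractile gene in each group, with the grey band marking the range that holds 95% of all genes tested in absolute value. In total RNA the Actg2 bar points away from most of the others in both genotypes, and in AGO2-IP it points the same way as most of them.

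The desmin gene Des, an intermediate filament gene of muscle and mesangial cells, differed more between the WT replicates than between genotypes, with 107 and 790 CPM for WT and 217 and 132 CPM for miR-379KO in total RNA. The 10 mesangial and pericyte markers summed to 580 and 1078 CPM in WT A and B and to 630 and 393 CPM in miR-379KO A and B. Des carried that order, and the other 9 markers summed to 473 and 287 CPM in WT and 412 and 261 CPM in miR-379KO, higher in A in both genotypes. The 6 podocyte markers summed to 628 and 240 CPM in WT and 570 and 329 CPM in miR-379KO, higher in A in both genotypes. The part of these markers in the spread of the contractile genes was not tested.

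In AGO2-IP most of the contractile genes were lower in miR-379KO, though far less so than Actg2. Actg2 measured 57.8 and 73.8 CPM in WT (590 and 638 counts) and 7.98 and 5.49 CPM in miR-379KO (68 and 43 counts), a ratio of means of 9.77. Its log2 fold change of −3.28 ± 0.28 was the lowest of 13505 genes tested, again the value that led to its choice. Relative to 100 Acta2 counts, the WT pull-downs held 10.6 and 11.1 Actg2 counts and the miR-379KO pull-downs 1.66 and 1.97.

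Cnn1 had the largest difference among the 9, from 28.1 and 48.9 CPM in WT to 17.4 and 8.30 CPM in miR-379KO. Its log2 fold change was −1.58 ± 0.34 with an adjusted p of 0.00507. Myl9 fell from 39.9 and 63.4 CPM to 31.7 and 13.9 CPM (log2 fold change −1.17 ± 0.35, adjusted p = 0.0229). In both genes miR-379KO B was the lowest library, and the groups did not overlap.

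The tropomyosins fell together. Tpm1 went from 301 and 359 CPM in WT to 180 and 141 CPM in miR-379KO (log2 fold change −1.04 ± 0.29, adjusted p = 0.0108). Tpm2 went from 45.9 and 73.9 CPM to 34.6 and 27.1 CPM (log2 fold change −0.95 ± 0.26, adjusted p = 0.00966). The groups did not overlap for either gene.

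Tagln fell from 258 and 321 CPM to 194 and 123 CPM (log2 fold change −0.87 ± 0.30, adjusted p = 0.0323), and Lmod1 from 20.2 and 22.4 CPM to 15.3 and 8.94 CPM (log2 fold change −0.81 ± 0.24, adjusted p = 0.0154). Acta2, with 544 and 662 CPM in WT and 480 and 279 CPM in miR-379KO, did not pass (log2 fold change −0.67 ± 0.33, adjusted p = 0.122). Mylk, with 9.90 and 25.6 CPM in WT and 14.8 and 5.37 CPM in miR-379KO, overlapped and did not pass (log2 fold change −0.79 ± 0.79, adjusted p = 0.529). Myh11 lay the other way, with 1.86 and 0.578 CPM in WT and 2.58 and 2.68 CPM in miR-379KO, and did not pass either (log2 fold change 1.05 ± 0.45, adjusted p = 0.0754).

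**Figure D3:**
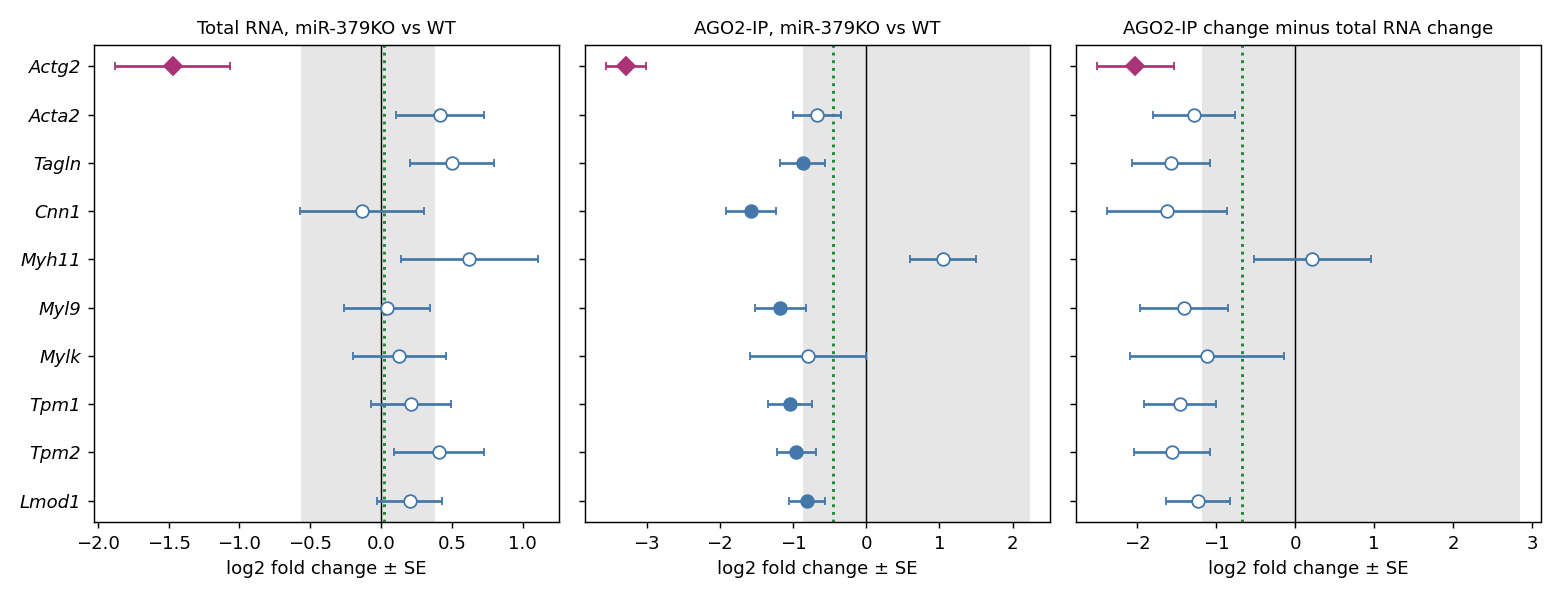
Log2 fold change ± SE of each contractile gene in total RNA, in AGO2-IP and for the AGO2-IP change less the total RNA change, with filled circles for genes past an adjusted p of 0.05, open circles for those that did not pass, and a diamond for Actg2, which was not tested. The grey band holds the middle 90% of all genes tested and the dotted line is the median of genes with a mean over 1000 counts in total RNA; 6 circles are filled in AGO2-IP and 0 in the other panels.

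In all, 6 of the 9 genes were called lower in AGO2-IP and 0 were called higher, beside 9.52% of all genes tested called lower and 21.4% called higher. The share called depended on how abundant a gene was in total RNA. Of 3651 genes with a mean over 1000 total RNA counts, 26.4% were called lower and 0.192% higher, and their median log2 fold change was −0.45. Of the 9 genes, 8 are above that level, all but Myh11. The 9 had a median log2 fold change of −0.87, against −0.01 over all genes tested. The groups did not overlap, with miR-379KO lower, for 7 of the 9 genes, as was the case for 32.2% of all genes tested and 69.7% of the abundant ones. Myh11 was among the 36.1% with miR-379KO higher. The lower gene counts and the smaller share of reads in genes of the miR-379KO pull-downs moved with these values, and their part in the result was not tested.

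**Figure D4:**
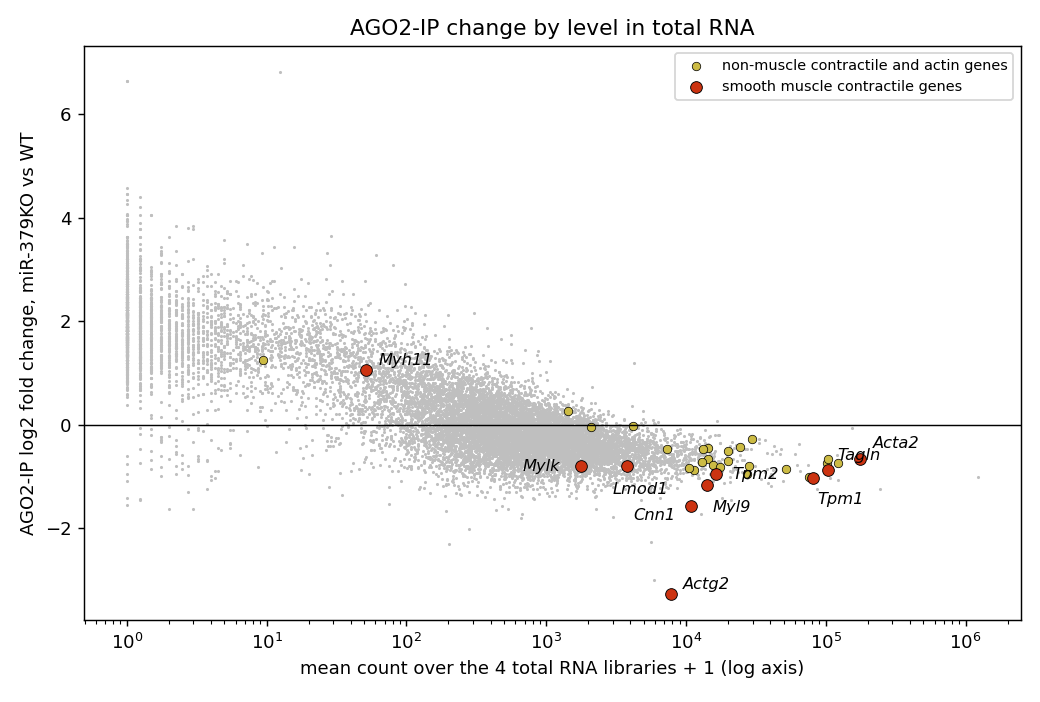
AGO2-IP log2 fold change of miR-379KO against WT for all 13505 genes tested (grey) against the mean count over the 4 total RNA libraries plus 1 (log axis), with the smooth muscle contractile genes in red and the non-muscle contractile and actin genes in yellow. Abundant genes lie below 0 as a body, with a median of −0.45 above 1000 counts, Actg2 lies far below them at −3.28, and Myh11 lies with the rare genes above 0.

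The 6 calls were not stable. With genes restricted to a mean of at least 50 counts, which also changes the scaling, 0 of 8 testable genes passed, all 8 remained below 0 with a median of −0.54, and Cnn1 had the lowest adjusted p of 0.124. With all 8 libraries in a single fit 0 of the 9 passed, with Tpm1 nearest at an adjusted p of 0.0503. DESeq2 called 4 of the 9 (Tagln, Cnn1, Tpm1 and Tpm2). Without miR-379KO AGO2-IP replicate B only Cnn1 was called (log2 fold change −1.16), and without WT AGO2-IP replicate B only Cnn1, Myl9 and Lmod1 were. Scaling on genes expressed in total RNA called 5 of the 9 lower and moved the median of all genes to 0.16. Myh11 was called higher with that scaling (adjusted p = 0.0498), with the correction for GC content and transcript length (adjusted p = 0.0360) and without WT AGO2-IP replicate A (adjusted p = 0.00837). Higher genes made up 69.2% of all AGO2-IP calls as reported, 85.4% with that scaling and 55.4% with a correction for GC content and transcript length. The 8 negative log2 fold changes stayed negative under each of these settings.

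**Figure D5:**
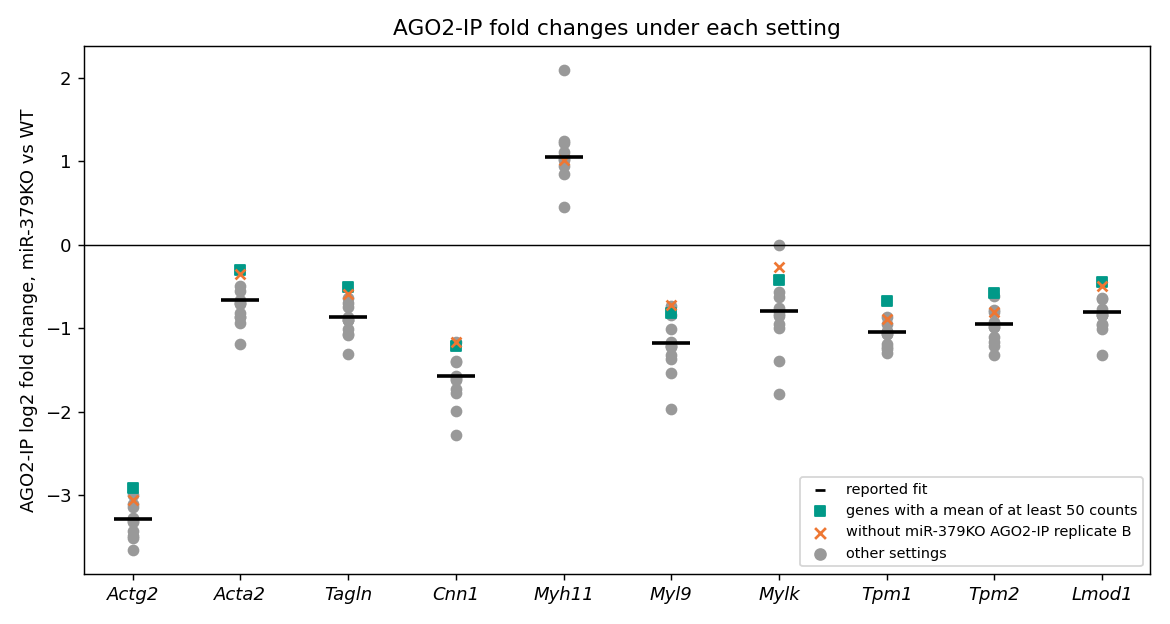
AGO2-IP log2 fold change of miR-379KO against WT for each contractile gene under the reported fit (black line) and each alternative setting (points), with the count filter in green and the fit without miR-379KO AGO2-IP replicate B in orange. Actg2 stays between −3.65 and −2.91, Cnn1 between −2.28 and −1.16, and Mylk reaches −0.0025 without WT AGO2-IP replicate B.

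The pull-downs hold a low background of reads on genes that total RNA did not detect, and its source was not tested. Over 4801 protein-coding genes with 0 counts in total RNA, this background was 1.20 and 0.807 counts per kb of exon in WT and 2.72 and 3.10 counts per kb in miR-379KO. For Myh11 it amounts to 8.996 and 6.05 expected counts for WT and 20.4 and 23.3 for miR-379KO, against 19, 5, 22 and 21 counts measured, so Myh11 was not detectable above background in 3 of the 4 pull-downs. Background made up at most 0.403% of the counts of Acta2, 0.511% of Tagln and 1.47% of Tpm1, but up to 9.49% of Actg2, 10.0% of Cnn1, 17.5% of Lmod1 and 60.7% of Mylk. With it subtracted, the log2 ratio of group means went from −3.29 to −3.39 for Actg2, from −1.59 to −1.66 for Cnn1, from −0.82 to −0.97 for Lmod1 and from −0.82 to −1.24 for Mylk.

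The difference in AGO2-IP was next set against that in total RNA, in all 8 libraries. The AGO2-IP change was below the total RNA change for 8 of the 9 genes, by −1.11 (Mylk) to −1.62 (Cnn1) on the log2 scale, with Myh11 at 0.22 and a median of −1.41. Over all genes tested the median was 0.01, and over genes with a mean over 1000 total RNA counts it was −0.68, with 94.0% of these below 0. Actg2 stood at −2.02 ± 0.49. By edgeR 0 of the 9 passed after adjustment, beside 0% of 17429 genes, with the lowest adjusted p at 0.235 (Tagln and Tpm2). At an unadjusted p under 0.05, 6 of the 9 were below 0 (Acta2, Tagln, Myl9, Tpm1, Tpm2 and Lmod1), compared to 10.9% of all genes and 35.5% of the abundant ones. DESeq2 called 3 of the 9 lower (Tagln, Tpm1 and Tpm2), beside 97 of 17429 genes. A block of genotype and letter takes both assays of the same letter to share a culture, although the labels do not say so. With this block 7 were called lower (all but Acta2 and Myh11), beside 977 of 17429 genes. Without WT total RNA replicate B the median of the 9 genes was −1.77. Acta2, Tagln and Tpm1 lay above WT in total RNA and below WT in the pull-downs. In the edgeR fit without a block this opposition did not pass the test of the difference between assays. Tagln and Tpm1 passed with DESeq2 and with the block, and Acta2 did not. For the 9 genes the median log2 difference of replicate B against A was 0.40 in WT total RNA and 0.31 in WT AGO2-IP. In miR-379KO it was −0.28 and −0.77. Whether libraries of one letter share a culture was not tested.

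Recovery in the pull-down relative to total RNA was compared within each genotype. In WT, 6 of the 9 genes were called lower in AGO2-IP, from Tpm1 (log2 difference −1.12) to Cnn1 (−1.50), beside 12.8% of all genes tested, and Myh11 was called higher (1.78), beside 38.7%. Lmod1 (−0.63, adjusted p = 0.0692) and Mylk (0.15, adjusted p = 0.876) did not pass. In miR-379KO, 7 of the 9 were called lower, from Lmod1 (−1.86) to Cnn1 (−3.12), beside 25.9%, and Myh11 was called higher (2.004), beside 43.9%, with miR-379KO pull-down counts at the level of the background given above. The WT call of Myh11 was lost without WT AGO2-IP replicate A and with the correction for GC content and transcript length. Genes with a mean over 1000 total RNA counts also ran low, with a median of −0.45 in WT and −1.09 in miR-379KO. Of these genes 71.8% were below 0 in WT and 87.9% in miR-379KO. Over all genes tested the medians were 0.49 and 0.47, and over the 9 genes −1.18 and −2.57. Actg2 differed by −0.78 in WT and −2.80 in miR-379KO. Without WT total RNA replicate B the WT count fell to 2 (Tagln and Tpm1), and without WT AGO2-IP replicate A it fell to 3 (Acta2, Tagln and Tpm1). Assay and library protocol changed together here, so neither can be told apart from the other.

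Related genes were described from lists assembled beside the contractile genes. Among 23 other smooth muscle genes, 15 were tested in AGO2-IP, of which 5 were called lower and 1 higher, beside 9.52% and 21.4% of all genes and 26.4% called lower among those with a mean over 1000 total RNA counts. Their median log2 fold change was −0.32. Smtn, a smoothelin of contractile smooth muscle, fell by 1.22 on the log2 scale (adjusted p = 0.00249), Pdlim7 fell by 0.89 (adjusted p = 0.00834) and Csrp1, a LIM protein of the smooth muscle cytoskeleton, fell by 0.88 (adjusted p = 0.0216). Itga8 was the gene called higher (1.29, adjusted p = 0.00854) and had 0.383 to 2.27 CPM in total RNA. Cald1, the caldesmon that binds actin and tropomyosin, did not pass (−0.57, adjusted p = 0.138). In total RNA 0 of 18 tested were called, 11 were below 0 and the median was −0.11. The smallest p-values were those of Synm (log2 fold change −0.79 ± 0.49) and Des (−1.36 ± 0.89, the 31st lowest of 12321), which did not pass.

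Of the 24 non-muscle contractile and actin genes, 10 were called lower in AGO2-IP and 1 higher, with a median log2 fold change of −0.68, beside the same 9.52% and 21.4% of all genes and 26.4% called lower among abundant genes. The gene called higher was Myh14 (at most 0.930 CPM in total RNA), whose 18 and 21 counts in the miR-379KO pull-downs were at the expected background of 19.2 and 21.9 counts. Myh9, a non-muscle myosin heavy chain, fell by 1.02 (adjusted p = 0.0233), Vcl, the focal adhesion protein vinculin, fell by 0.96 (adjusted p = 0.0192) and Pfn1, the actin monomer-binding profilin, fell by 0.87 (adjusted p = 0.00782). The cytoplasmic actins Actb (−0.74, adjusted p = 0.0861) and Actg1 (−0.74, adjusted p = 0.0652) did not pass. In total RNA 0 of 23 were called, 18 were above 0 and the median was 0.21, the same as for the 9 contractile genes. The cardiac and skeletal actins Actc1 and Acta1 reached at most 0.117 and 10.2 CPM in total RNA. Reads that fit several actin genes equally well were left out by the authors' counting, so levels of the individual actins carry that uncertainty.

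Of 14 transcription factors of smooth muscle genes, 0 were called in total RNA. Srf measured 92.6 and 89.5 CPM in WT and 106 and 101 CPM in miR-379KO, and Myocd, the gene of myocardin, measured 6.02 and 0.657 CPM in WT and 5.0003 and 4.41 CPM in miR-379KO. The smallest p-values were those of Notch3 (log2 fold change −0.80, unadjusted p = 0.0272) and Mkl2, which did not pass. In AGO2-IP 3 of the 14 were called lower and 0 higher, beside 9.52% called lower among all genes and 26.4% among abundant genes. Smad3 fell by 0.78 (adjusted p = 0.0122), Mkl1, a myocardin-related factor, fell by 0.73 (adjusted p = 0.0193) and Tead3 fell by 0.68 (adjusted p = 0.0373). Among marker lists, 2 of 8 mesangial and pericyte markers were called lower (Cspg4 and Pdgfrb) and 1 higher (Itga8), and 2 of 5 fibroblast markers were called lower (Col1a1 and Col3a1) and 2 higher. Of the podocyte, endothelial, tubular epithelial and immune markers tested in AGO2-IP, 0 were called lower and 1 of 5, 1 of 2, 2 of 2 and 1 of 3 were called higher, beside 21.4% of all genes. The endothelial gene called, Kdr, had 23 and 25 counts in miR-379KO against an expected background of 20.9 and 23.9, and Ptprc, the immune gene called, had 36 and 59 counts against 16.0 and 18.2. In total RNA 0 marker genes were called in any list.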

How the data were processed

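A stranded poly(A) kit was used by the authors for total RNA, and small RNA adapter ligation without size selection for AGO2-IP of UV cross-linked, sonicated lysates. The submitters' notes name mm10, TopHat, Bowtie2 2.1.0.1 and HTSeq 0.6.0. The values used were the counts per RefSeq gene as deposited, in whole reads counted by strand and without normalization. Entries for reads outside genes served only to describe libraries.

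Each test was fitted on the whole table in edgeR 4.0.16 (R 4.3.3) with TMM factors, filterByExpr (minimum count 10) and robust quasi-likelihood F tests, with Benjamini-Hochberg adjustment over all genes tested and calls at 0.05. Genotypes were compared in the 4 libraries of each assay. The AGO2-IP change less the total RNA change, and AGO2-IP against total RNA by genotype, used all 8 libraries in the fit. Errors are the log2 fold change divided by the square root of F. CPM were scaled within each assay. The fits were also run on simulated counts. These were drawn without the AGO2-IP shift of abundant genes, so that run cannot speak to calls made under the shift.

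The contractile genes, related gene lists and marker lists were chosen with earlier results of these data known. Named genes outside the 10 were a fixed set and, in each list, of the genes called with a mean of at least 50 counts, the 3 most changed in either direction, or the 2 with the smallest p where none was called. Myh14, Itga8, Acta1 and the marker genes given with their background were named after their values were seen or for a count. Actg2 was left out of all counts of calls, also within genotypes, where all 10 genes had been planned. Symbols were matched to RefSeq on GRCm38.p6 (23598 by symbol, 716 by synonym, 325 unmatched) for coordinates, exon length, 3′-UTRs, promoters and microRNAs. Alternatives were DESeq2 1.42.0, other scalings and count filters, a correction for GC content and transcript length, blocks, a joint fit, the study's cutoff and omission of each library. A fit with crossed letters in total RNA was added after the data were seen.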

Additional observations from a re-analysis of the deposited data

How the results depend on the processing

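Counts of the 9 genes called lower went in AGO2-IP from 6 to 0 with a mean of at least 50 counts, to 0 with all 8 libraries in one fit, and to between 1 and 8 when each library was left out in turn (1 without miR-379KO replicate B, 3 without WT replicate B). For the AGO2-IP change against the total RNA change the count went from 0 to 3 with DESeq2, to 7 with a block for each assumed culture and to between 0 and 5 when libraries were left out (5 without WT total RNA replicate B). For AGO2-IP against total RNA in WT it went from 6 to between 2 and 7 when libraries were left out. In total RNA it was 0 under each setting, and in miR-379KO AGO2-IP against total RNA it was 7 or 8.

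Deviations from the group means were compared across genes between WT and miR-379KO libraries of the same letter. The correlation was −0.11 over 10763 genes in total RNA and 0.04 over 4971 genes in AGO2-IP. The letters were therefore not taken to pair samples between genotypes. This comparison lies within an assay and cannot show whether total RNA and AGO2-IP of one letter are paired. With the letter as a replicate block the counts were 0 in total RNA, 5 in AGO2-IP, 0 for the difference between assays, 6 in WT and 7 in miR-379KO. With crossed letters it was 0 in total RNA.

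Signs turned in total RNA for genes near 0. Myl9 was at −0.12 with the GC and length offset and between −0.21 and 0.37 when libraries were left out, Cnn1 between −0.61 and 0.60, and Mylk between −0.24 and 0.62. Myh11 turned in the difference between assays (−0.15 to 1.54). Actg2 ranged from −2.14 to −0.99 in total RNA and from −3.65 to −2.91 in AGO2-IP. Over all genes, AGO2-IP calls went from 4173 to 802 with DESeq2, 274 with the 50-count minimum, 686 in the joint fit, and 918 and 2351 without replicate B of miR-379KO and of WT. For the difference between assays they went from 0 to 114 with DESeq2, 805 with the GC and length offset, 1108 with the culture block and 1547 without WT total RNA replicate B. In WT AGO2-IP against total RNA, 8987 calls became 2881 with the 50-count minimum, 4447 with the culture block and 5655 without WT AGO2-IP replicate A, and in miR-379KO 12159 became 4716 with the 50-count minimum. The cause of these shifts was not tested. With 2 libraries a group, 43 to 68 Actg2 counts in the miR-379KO pull-downs limit the precision.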

Other observations

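Taken as a share of all gene counts other than Rn45s and Lars2, the 10 contractile genes made up 1.84% and 2.42% of WT total RNA and 2.68% and 2.49% of miR-379KO total RNA. Their share of the pull-downs was 0.711% and 0.888% for WT and 0.637% and 0.431% for miR-379KO. Tpm2 counts per 100 Tpm1 counts lay between 15.2 and 24.1 in all 8 libraries, at 16.3 and 20.8 for WT total RNA, 19.0 and 24.1 for miR-379KO total RNA, 15.2 and 20.6 for WT AGO2-IP and 19.3 and 19.2 for miR-379KO AGO2-IP. Des varied widely in AGO2-IP, with 13.3 and 87.4 CPM for WT and 7.63 and 4.73 CPM for miR-379KO, and its log2 fold change of −3.01 ± 1.38 did not pass (adjusted p = 0.253).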
